A study of Mus musculus with 8 samples.

Results

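The enzymes described are those that clear dopamine by oxidation: the monoamine oxidases Maoa and Maob and the aldehyde dehydrogenases Aldh1a1 and Aldh2. They were taken by gene name from the deposited gene table, which matched 4 rows of 54532, and all 4 were among the 13716 genes tested because their mean over the libraries reached 1 FPKM (fragments per kilobase of the deposited gene length, scaled by depth). The tissue was the substantia nigra, a midbrain nucleus in which dopamine neurons are concentrated, taken from C57BL/6 males, and 4 groups had 2 RNA-seq libraries each. There were mice given AAV-α-synuclein, an adeno-associated virus that carries the Parkinson's disease protein α-synuclein (α-Syn), mice given α-ketoglutarate (AKG), an intermediate of the citric acid cycle that was dietary according to the title of the series, mice given AAV-α-synuclein together with AKG (combined mice, α-Syn+AKG in the plots), and control mice, which the sample titles call wild type. The labels do not state the promoter or dose of the vector, the dose or duration of AKG, the age of the mice or whether an empty vector was given to mice without α-synuclein. They also do not say that the 2 libraries of a group came from separate animals, so the p-values measure only the spread between these libraries, which may be technical.

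Dopamine that is not repackaged into vesicles is oxidised at the outer mitochondrial membrane by monoamine oxidases, which release hydrogen peroxide and the reactive aldehyde DOPAL. Aldehyde dehydrogenases turn DOPAL into the acid DOPAC, and DOPAL that escapes this step is known to modify proteins, α-synuclein among them. In the midbrain Maoa is best known from catecholamine neurons and Maob from astrocytes and serotonin neurons, while Aldh1a1, a cytosolic enzyme, marks a ventral population of dopamine neurons and Aldh2 is the mitochondrial enzyme present in most cell types.

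Libraries held 16544190.0 to 19125423 reads assigned to genes, and a value of the 4 enzymes rested on 1107 to 3610 reads. The first control library stood apart, with 8778 FPKM of the choroid plexus gene Ttr against 44.0 to 4857 in the others and a summed hemoglobin and Alas2 level of 14.6 FPKM against 172 to 444.

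None of the 4 enzymes passed the test in any comparison, and their log2 differences from control lay between -0.51 and -0.03. Aldh1a1 stood lowest against control, at 25.6 ± 6.48 FPKM in α-Syn mice, 28.9 ± 5.08 in AKG mice and 28.0 ± 2.37 in combined mice, against 36.5 ± 2.0 in control mice (mean ± SD, n = 2 each). Maoa also lay below both control libraries in all 6 other libraries, but by a smaller step, and 12.2% of all tested genes lay below in this way. For Maob and Aldh2 the range of the 6 libraries overlapped with control. Tyrosine hydroxylase (Th), which makes the dopamine precursor, averaged 14.4 ± 2.45, 10.5 ± 0.254 and 15.6 ± 1.41 FPKM in these 3 groups, against 38.8 FPKM in both control libraries, a log2 difference of -1.79 to -1.27.

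Maoa (ENSMUSG00000025037, chrX:16619698-16687818, plus strand) and Maob (ENSMUSG00000040147, chrX:16709282-16817366, minus strand) lie close together on the X chromosome in opposite orientation (GRCm38, coordinates of the deposited table). Their coding sequences were 71.25% identical over 1548 aligned positions, and the longest identical run was 35 bases. Only reads without a differing base would match both genes exactly. The most alike stretch of 90 bases, in exon 12 of both genes in GENCODE M21, is therefore shown. It lies at chrX:16682201-16682290 (plus strand) in Maoa and at chrX:16716394-16716483 (minus strand) in Maob, and the capitals mark the 9 bases that differ.
Maoa: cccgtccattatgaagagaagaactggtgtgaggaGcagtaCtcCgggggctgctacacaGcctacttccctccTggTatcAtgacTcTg
Maob: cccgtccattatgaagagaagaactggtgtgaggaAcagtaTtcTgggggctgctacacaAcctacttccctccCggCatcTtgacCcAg
The differing bases break the stretch so that no window of 50 bases was shared by the 2 transcripts: of 2362 such windows of Maob, 0 occurred in a transcript of another gene, and of 4118 windows of Maoa, 164 (3.98%) did, none of them in Maob.

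Aldh1a1 (ENSMUSG00000053279, chr19:20492715-20643462, plus strand) has a close neighbour on the minus strand, Aldh1a7, whose coding sequence was 91.62% identical with a longest identical run of 100 bases. A stretch of 90 bases from exon 11 of Aldh1a1 (chr19:20629063-20629152, plus strand) and exon 8 of Aldh1a7 (chr19:20709402-20709491, minus strand) shows the identity, with no base in capitals because none differs.
Aldh1a1: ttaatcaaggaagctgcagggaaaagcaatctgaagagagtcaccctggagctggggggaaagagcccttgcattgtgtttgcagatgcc
Aldh1a7: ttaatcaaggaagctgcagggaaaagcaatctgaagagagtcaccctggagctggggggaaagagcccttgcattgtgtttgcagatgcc
Of the 2309 windows of 50 bases in the Aldh1a1 transcript, 151 (6.54%) also occurred in Aldh1a7. The sources used here do not say how reads from such windows were counted, but Aldh1a7 held only 5 to 28 reads per library beside 1763 to 3610 for Aldh1a1. Aldh2 (ENSMUSG00000029455, chr5:121566027-121593824, minus strand) shared 81 of 3818 windows (2.12%), compared on either strand and all with Gm42879, which held 1 to 9 reads per library. The sources used here give no strand setting for the counting, so antisense reads could not be told apart from those of the enzymes. Aldh1a1 and Aldh2 coding sequences were 66.29% identical, with a longest identical run of 23 bases.

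The level of Maoa ranked 3350 of the 13716 tested genes, above 75.6% of them, and those of Aldh2, Aldh1a1 and Maob ranked 1900, 1779 and 1477. In deposited FPKM the order was therefore Maob (mean 35.6 over the 8 libraries), Aldh1a1 (29.7), Aldh2 (28.1) and Maoa (16.1). Aldh1a1 and Aldh2 did not differ beyond their spread, with 21.0 to 37.9 FPKM in Aldh1a1 and 24.7 to 36.1 FPKM in Aldh2, and Aldh1a1 overlapped with Maob, which had 30.6 to 42.9 FPKM. Maoa stood apart below the others, since its highest library (17.8 FPKM) lay under the lowest of Aldh1a1 (21.0).

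The order of the other 3 rested on the gene length behind the FPKM. The deposited length of Aldh1a1 is 4934 bases, beside 4937 for the exons of all its transcripts together. Its coding transcript in GENCODE M21, chosen by the longest coding sequence and then by length, has 2358 bases. With the length of the coding transcript, Aldh1a1 averaged 62.2 FPKM (44.0 to 79.3), Maob 41.2 (35.4 to 49.6), Aldh2 37.2 (32.7 to 47.8) and Maoa 16.1. Aldh1a1 came first on that scale. It divides all reads of a gene by the length of that transcript, although reads from other exons of the gene may be among them. The level can therefore be overstated, by most for Aldh1a1, whose lengths differ most. Reads were not split by transcript, so the order of these 3 enzymes was not settled. Ratios of FPKM between groups are the same with either length. RefSeq (GRCm38.p6) gives Aldh1a1 a start at position 20492583 and another at 20601968 of chromosome 19. Which of them was in use in this tissue, or by the coding transcript above, was not tested. Sequence is shown for Aldh1a1 because it had the largest differences from control of the 4 enzymes, here before the downstream start. The 200 bases before the downstream start, chr19:20601768-20601967 (plus strand), hold a TATA-like ATAAAA that begins 30 bases before the start. They also hold a CCAAT that begins 72 bases before it, and both are in capitals.
Aldh1a1 upstream: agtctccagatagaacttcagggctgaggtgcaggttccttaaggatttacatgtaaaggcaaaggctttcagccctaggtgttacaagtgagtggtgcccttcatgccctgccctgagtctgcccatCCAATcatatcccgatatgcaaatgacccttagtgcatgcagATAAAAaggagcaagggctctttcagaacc
ATAAAA was found on either strand in 13.49% of the 32851 RefSeq promoters over the same 200 bases, where it can overlap TATAAA, and CCAAT in 29.35%. Neither was found in the 200 bases before the upstream start.

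Maoa, the oxidase with the preference for noradrenaline and serotonin that also takes dopamine, had 16.2 and 15.7 FPKM in α-Syn mice, 14.9 and 15.7 in AKG mice and 15.7 and 15.4 in combined mice, against 17.0 and 17.8 in control mice. Its 8 libraries were the most alike of the 4 enzymes, the highest being 1.20 times the lowest, and its replicates differed by no more than counting error in any group (1107 to 1367 reads per library; exact two-sided binomial test, adjusted p of 0.262 to 0.542 over 16 replicate pairs). All 6 libraries of the other groups lay below both control libraries, as in 12.2% of tested genes. The log2 difference from control was -0.12 ± 0.093 in α-Syn mice (standard error; limma, Benjamini-Hochberg adjusted p = 0.476), -0.18 ± 0.093 in AKG mice (adjusted p = 0.331) and -0.15 ± 0.093 in combined mice (adjusted p = 0.429). Differences between groups are on the log2(FPKM + 1) scale, and gaps between replicates are log2 ratios of FPKM. The 95% intervals of the group differences allow a level between 0.759 and 1.07 times that of control across the 3 groups. Multiples taken from intervals, here and below, are ratios of FPKM + 1. Without the first control library the differences were -0.15, -0.21 and -0.19.

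Maob, the oxidase most abundant in glia, had 30.6 and 36.6 FPKM in α-Syn mice, 36.2 and 39.6 in AKG mice and 32.8 and 31.5 in combined mice, against 42.9 and 35.0 in control mice. Only the combined libraries lay below both control libraries, as in 20.5% of tested genes. The difference from control was -0.21 ± 0.14 in α-Syn mice (adjusted p = 0.418), -0.03 ± 0.14 in AKG mice (adjusted p = 0.906) and -0.26 ± 0.14 in combined mice (limma, adjusted p = 0.399). The control libraries themselves differed by 0.29 in log2 FPKM, beyond counting error (exact binomial test, adjusted p = 2.58e-10). Without the first control library the 3 differences were -0.06, 0.11 and -0.12, and without the second they were -0.35, -0.18 and -0.41.

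Aldh1a1, the cytosolic dehydrogenase, had 30.2 and 21.0 FPKM in α-Syn mice, 25.3 and 32.4 in AKG mice and 26.3 and 29.6 in combined mice, against 37.9 and 35.0 in control mice. All 6 libraries of the other groups lay below both control libraries, as in 12.2% of tested genes, and the lowest was the second α-Syn library. The difference from control was -0.51 ± 0.19 in α-Syn mice (limma, unadjusted p = 0.0331, adjusted p = 0.294), with a 95% interval of -0.97 to -0.05, or 0.510 to 0.963 times the control level. It was -0.34 ± 0.19 in AKG mice (adjusted p = 0.366, interval -0.80 to 0.12) and -0.37 ± 0.19 in combined mice (adjusted p = 0.393, interval -0.83 to 0.09). Its 2 α-Syn libraries differed by 0.52 in log2 FPKM, the widest gap between replicates of the 4 enzymes, and its AKG libraries by 0.36. The gap exceeded counting error in all 4 groups (adjusted p of 8.91e-32 to 0.00261, exact binomial test). Without the first control library the 3 differences were -0.46, -0.28 and -0.32. Without the first α-Syn library the difference in α-Syn mice was -0.76, and without the second it was -0.26, again past no threshold. In bulk tissue fewer Aldh1a1-expressing cells and less Aldh1a1 RNA per cell cannot be told apart.

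Aldh2, the mitochondrial dehydrogenase, had 25.8 and 24.7 FPKM in α-Syn mice, 26.0 and 29.0 in AKG mice and 24.9 and 31.5 in combined mice, against 36.1 and 26.7 in control mice. The α-Syn libraries lay below both control libraries, as in 27.6% of tested genes, and the other groups overlapped with control. The difference from control was -0.29 ± 0.17 in α-Syn mice (adjusted p = 0.371), -0.17 ± 0.17 in AKG mice (adjusted p = 0.584) and -0.14 ± 0.17 in combined mice (limma, adjusted p = 0.673). The gap between the control libraries, 0.43 in log2 FPKM, was larger than each of these. Without the first control library the differences were -0.08, 0.04 and 0.07, and without the second they were -0.50, -0.38 and -0.35.

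**Figure D1:**
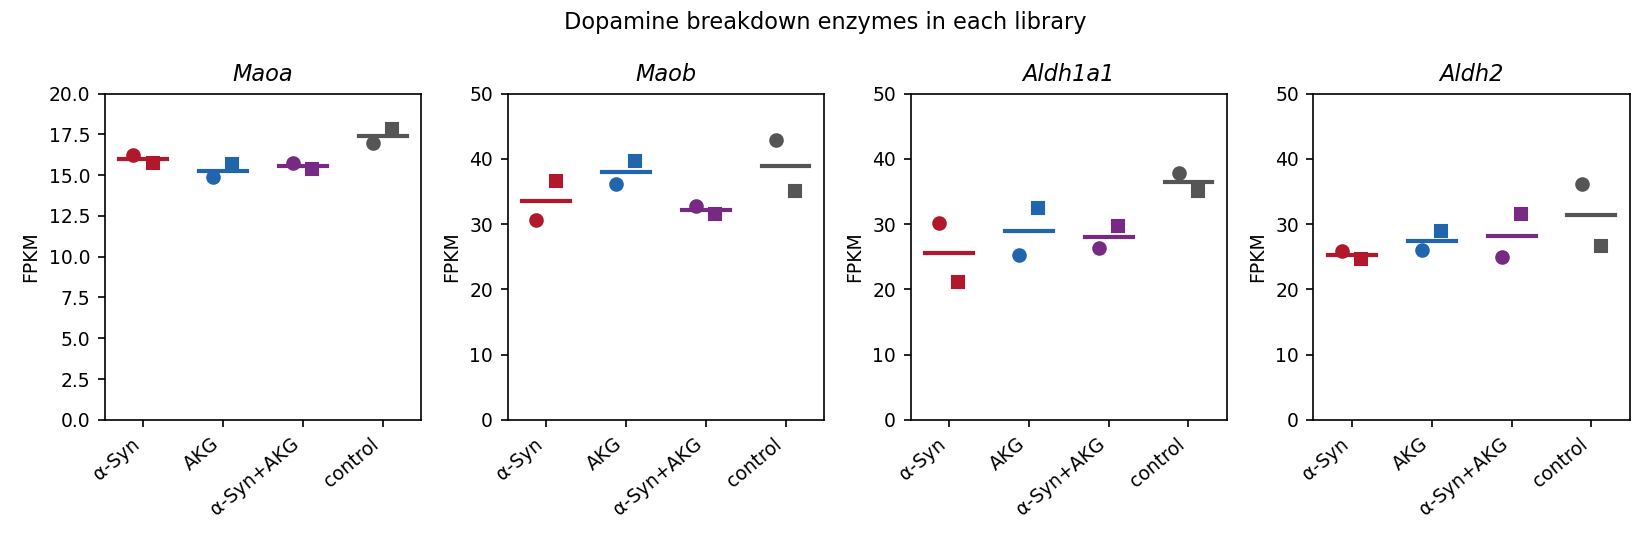
FPKM of Maoa, Maob, Aldh1a1 and Aldh2 in each of the 8 libraries (circle, replicate 1; square, replicate 2; line, group mean), with groups on the x axis and each y axis starting at 0. Maoa runs from 14.9 to 17.8 FPKM, and the 6 libraries outside control lie below both control libraries for Maoa and Aldh1a1 but not for Maob and Aldh2. Such a position below control held for 12.2% of all tested genes.

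Read against all genes, the counts for the enzymes are 0 of 4 called in every comparison. At an adjusted p under 0.05 limma called 0% of the 13716 genes in α-Syn and in combined mice against control, where 2305 and 1907 genes had an unadjusted p under that value, and 0.00729% in AKG mice, a single gene, Th. Limma's voom on recovered reads called 0, 0 and 1 genes in α-Syn, combined and AKG mice, 0 in every other comparison, and 0 enzymes. For α-Syn mice, 3 of the 4 enzymes had every library below control, and 27.6% of all tested genes did. For AKG mice it was 2 of 4, against 26.4% of tested genes, and for combined mice 3 of 4, against 20.5%. Maoa and Aldh1a1 were the 2 of 4 that lay below both control libraries in all 6 others, as did 12.2% of tested genes. All 4 estimates were below 0 in each of these comparisons, as were 51.2, 51.4 and 50.8% of those of all tested genes. The enzymes' medians were -0.25, -0.18 and -0.21, while the median over all tested genes was -0.01 in each. The 3 comparisons share the control libraries, so these medians are not separate observations. Without the first control library Maob (0.11) and Aldh2 (0.04) in AKG mice and Aldh2 (0.07) in combined mice were above 0.

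No enzyme passed the test when AKG was added to the vector or the vector to AKG. In combined against α-Syn mice, the differences were -0.04 ± 0.093 for Maoa, -0.06 ± 0.14 for Maob, 0.14 ± 0.19 for Aldh1a1 and 0.14 ± 0.17 for Aldh2 (limma, adjusted p = 0.99996 for each). At an adjusted p under 0.05, 0% of tested genes were called in this comparison and in combined against AKG mice, with 186 and 156 genes under an unadjusted p of 0.05. Both Maoa libraries of combined mice lay below the α-Syn libraries, as did those of 11.4% of tested genes, although the nearest libraries both round to 15.7 FPKM. For Aldh1a1 the 95% interval of -0.32 to 0.60 still allows a level between 0.802 and 1.51 times that of α-Syn mice. Against AKG mice, Maob differed by -0.23 ± 0.14 with both combined libraries lower (11.8% of tested genes), and the other 3 enzymes by -0.04 to 0.03. The interaction, which asks whether AKG acts differently with the vector, was 0.48 ± 0.27 for Aldh1a1 (adjusted p = 0.540), 0.32 ± 0.25 for Aldh2 (0.594), 0.14 ± 0.13 for Maoa (0.649) and -0.03 ± 0.20 for Maob (0.957). Leaving out 1 library moved it to between 0.23 and 0.73 for Aldh1a1 and between 0.11 and 0.53 for Aldh2. Here too limma called 0% of genes, with 998 at an unadjusted p under 0.05.

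Averaged over both AKG states, the vector groups differed from the groups without it by -0.22 ± 0.10 for Maob (limma, unadjusted p = 0.0648, adjusted p = 0.724), -0.27 ± 0.14 for Aldh1a1, -0.13 ± 0.12 for Aldh2 and -0.05 ± 0.066 for Maoa. All 4 overlapped between the groups (1.06% of tested genes had every library lower), and 0% of tested genes were called (545 at an unadjusted p under 0.05). Averaged over both vector states, the groups given AKG differed from those without it by -0.11 ± 0.066 for Maoa (adjusted p = 0.677). All 4 Maoa libraries with AKG were lower than the 4 without it, as in 1.9% of tested genes, but the nearest libraries of the 2 sides both had 15.7 FPKM. The other 3 enzymes differed by -0.10 to -0.01 and overlapped. Again 0% of tested genes were called, with 904 at an unadjusted p under 0.05.

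The genes that make, package and recover dopamine give the scale for these values. Of 9 such genes 8 were tested, and all 8 estimates were below 0 in each group against control, with medians of -0.42 in α-Syn mice, -0.71 in AKG mice and -0.57 in combined mice. Th was the 1 called gene, in AKG mice, at -1.79 ± 0.13 (limma, adjusted p = 0.0414), and it differed by -1.38 ± 0.13 in α-Syn mice (adjusted p = 0.229) and -1.27 ± 0.13 in combined mice (adjusted p = 0.202). In AKG mice 0 genes were called with any single library left out other than the second control library, with library weights, without a variance trend or with a gene length trend removed. The dopamine transporter gene Slc6a3 had 1.43 and 3.87 FPKM in α-Syn mice, 0.801 and 0.615 in AKG mice and 4.99 and 11.9 in combined mice, against 24.1 and 28.5 in control mice. Ddc, which decarboxylates L-DOPA to dopamine, differed by -0.89, -1.23 and -0.72, and the vesicular transporter gene Slc18a2 by -0.46, -0.997 and -0.62. Each enzyme estimate was nearer to 0 than that of Th, Slc6a3 and Ddc in the same comparison, and only Aldh1a1 in α-Syn mice was farther from 0 than Slc18a2. The other tested genes of this list, Qdpr, Pcbd1, Spr and Pts, overlapped with the enzymes. Their estimates were -0.38 to -0.21 in α-Syn mice, -0.42 to -0.31 in AKG mice and -0.52 to -0.06 in combined mice.

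**Figure D2:**
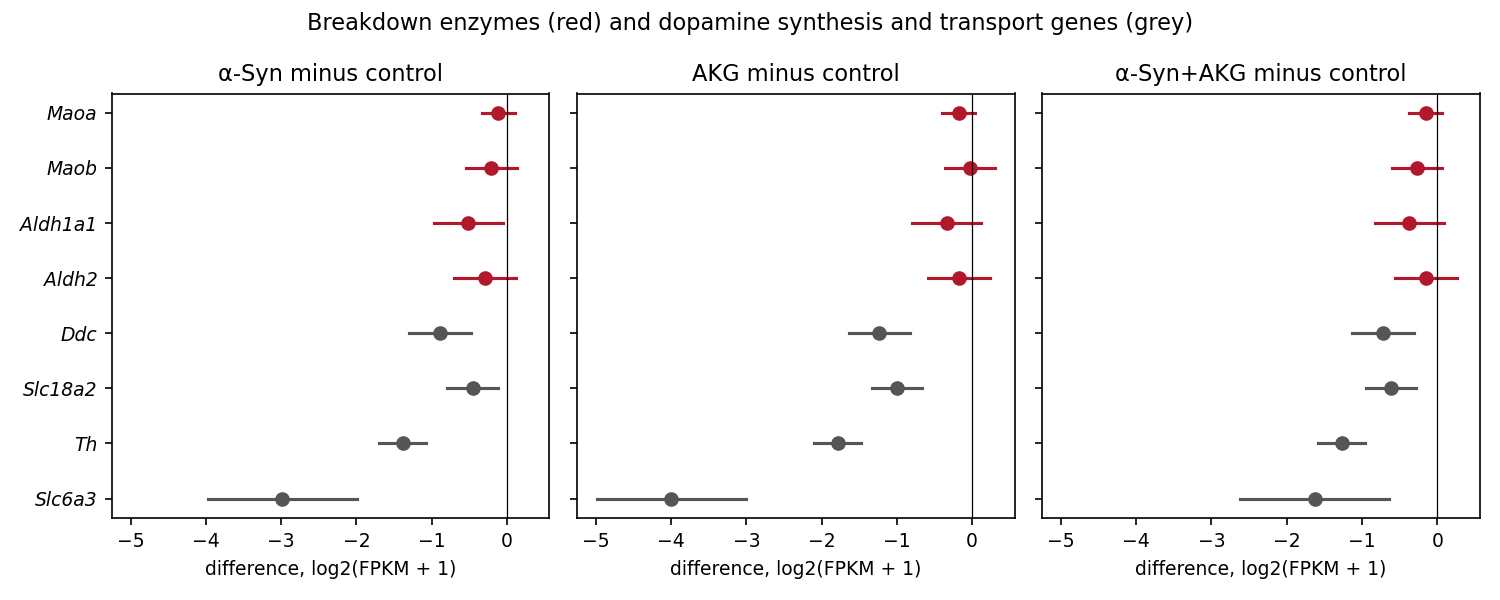
Log2 difference from control with its 95% interval from limma (x axis, log2(FPKM + 1)) for the 4 breakdown enzymes in red and for Ddc, Slc18a2, Th and Slc6a3 in grey, in α-Syn, AKG and combined mice. The enzymes lie between -0.51 and -0.03, and Slc6a3 between -3.997 and -1.63.

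Set against Th in the same library, each enzyme stood higher in every treated library than in either control library, as did 93.6% of all tested genes, so this is not particular to the enzymes. The ratio of Aldh1a1 to Th FPKM was 1.31 to 2.39 in α-Syn mice, 2.36 to 3.13 in AKG mice and 1.79 to 1.81 in combined mice, against 0.902 to 0.975 in control mice. That of Maoa was 0.978 to 1.29, 1.39 to 1.51 and 0.927 to 1.08 in these 3 groups, against 0.437 to 0.459 in control mice. Maob had ratios of 2.27 to 2.43, 3.37 to 3.83 and 1.90 to 2.25, against 0.901 to 1.10 in control mice. Aldh2 had ratios of 1.53 to 2.04, 2.42 to 2.79 and 1.71 to 1.90, against 0.687 to 0.928 in control mice. All 4 ratios share the Th values, and they were not tested. Among the enzymes themselves, Maob was 1.88 to 2.32, 2.43 to 2.53 and 2.05 to 2.08 times Maoa in the 3 treated groups, against 1.96 to 2.53 times in control mice. Each group overlapped with control in this proportion, which was not tested.

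**Figure D3:**
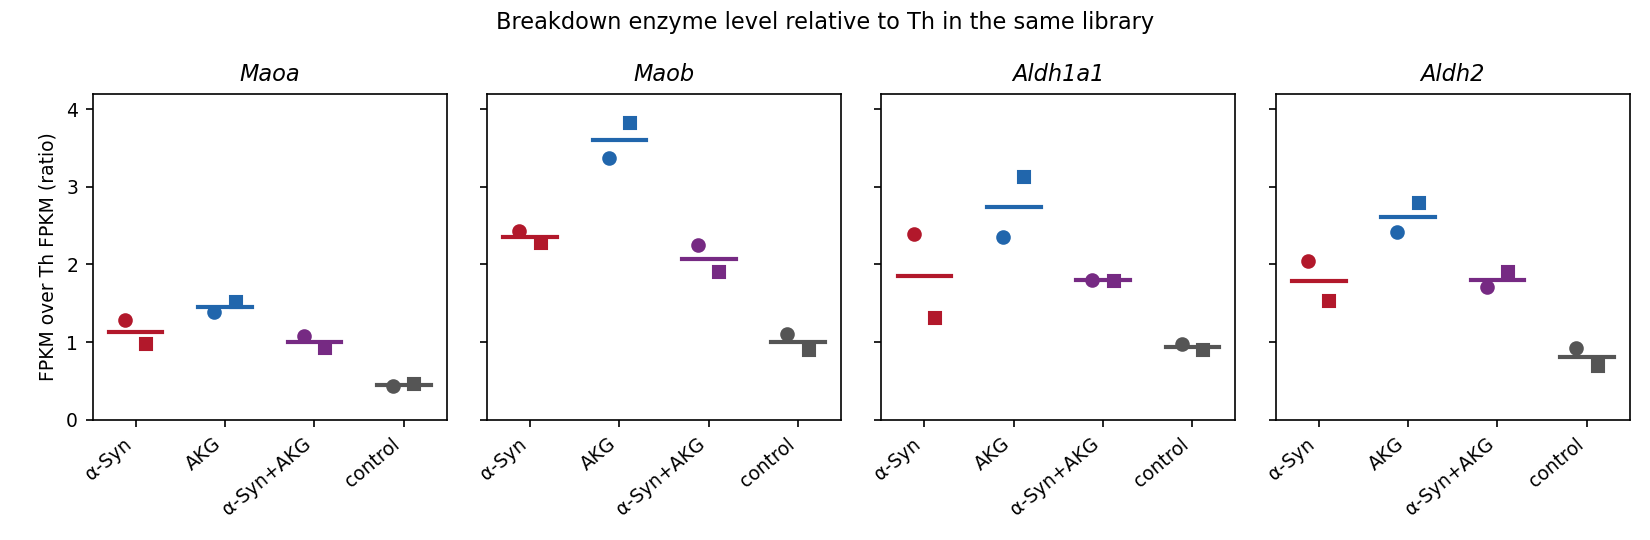
Ratio of each breakdown enzyme's FPKM to that of Th in the same library (y axis, starting at 0; circle, replicate 1; square, replicate 2; line, group mean), by group. Every library outside control lies above both control libraries in each panel, as in 93.6% of all tested genes, and the AKG libraries reach 3.83 for Maob.

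Of 4 other genes of dopamine clearance 0 passed the test in any comparison, with medians against control of -0.21, -0.38 and -0.22. The reductases Akr1a1 and Akr1b3, which can turn aldehydes into alcohols, differed by -0.43, -0.38 and -0.30 and by -0.31, -0.37 and -0.45. Akr1b3 in combined mice had the smallest unadjusted p of the list, 0.0135, and an adjusted p of 0.349 (limma). The sulfotransferase gene Sult1a1 had 8.16 and 7.58 FPKM in α-Syn mice, 3.71 and 5.56 in AKG mice and 9.15 and 6.20 in combined mice, against 16.5 and 4.15 in control mice, whose range was the widest.

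Among 19 other aldehyde dehydrogenases 13 were tested and 0 passed in any comparison. Against control 11, 11 and 9 of the 13 estimates were below 0 in α-Syn, AKG and combined mice, with medians of -0.07, -0.12 and -0.07. The highest was Aldh5a1, the succinic semialdehyde dehydrogenase of GABA breakdown, at 0.36 ± 0.17, 0.30 ± 0.17 and 0.34 ± 0.17. The lowest in α-Syn and AKG mice was Aldh3b1, at -0.59 ± 0.28 and -0.56 ± 0.28. Of 6 other amine oxidases 3 were tested, 0 passed, and Paox, the polyamine oxidase, was the one with estimates above 0 (0.26, 0.16 and 0.25).

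**Figure D4:**
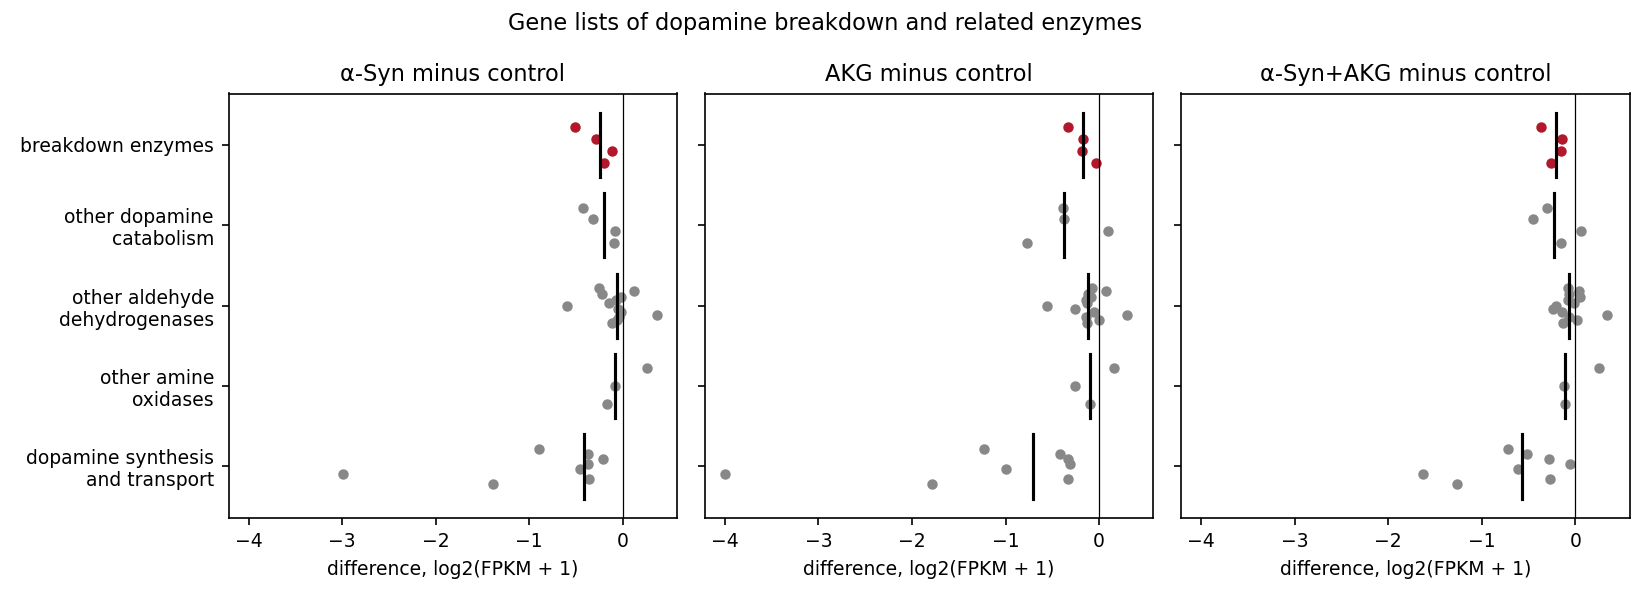
Log2 difference from control on the log2(FPKM + 1) scale (x axis) of each tested gene in 5 lists (rows; red, the 4 breakdown enzymes), with a vertical bar at each list's median, for α-Syn, AKG and combined mice. The enzymes' medians of -0.25, -0.18 and -0.21 lie nearer to 0 than those of the dopamine synthesis and transport genes, -0.42, -0.71 and -0.57.

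No cell marker passed the test in any comparison, and their summed levels, which were not tested, are given beside the enzymes. The summed level of 11 astrocyte markers, all detected, was 651 to 678 FPKM in α-Syn mice, 614 to 645 in AKG mice and 681 to 692 in combined mice, against 706 to 916 in control mice, with 6, 7 and 7 of 11 estimates below 0. That of 4 thalamic and midbrain excitatory markers was 167 to 200, 210 to 220 and 185 to 201 FPKM, against 79.1 to 144 in control mice. For 11 dopamine neuron markers, none at 0, it was 26.3 to 29.8, 24.0 to 31.9 and 28.7 to 33.8 FPKM, against 32.2 to 47.9 in control mice. Of these markers 7 were tested, and in each group 5 estimates were below 0 and 2 above. They ran from -1.40 to 0.25 in α-Syn mice, -1.81 to 0.34 in AKG mice and -0.88 to 0.26 in combined mice, so the markers did not move together. For 6 microglia markers it was 96.1 to 109, 103 to 121 and 110 to 139 FPKM, against 132 to 153 in control mice. Sums of oligodendrocyte, neuron, GABA neuron, endothelial, mural and fibroblast, choroid plexus and ependyma, and red cell markers overlapped with control in every group. Those of oligodendrocyte markers were 1189 to 1406, 1164 to 1413 and 1253 to 1969 FPKM, against 1221 to 1809 in control mice. Forebrain excitatory markers summed to 29.9 to 33.9, 30.9 to 51.5 and 39.0 to 43.0 FPKM, above 17.6 to 24.2 in control mice. The part of these markers in the lower values of Maoa and Aldh1a1 was not tested. Noradrenaline and serotonin neuron markers, which mark other cells rich in monoamine oxidase, summed to 2.04 to 4.28 FPKM over all libraries, most of it Htr1a.

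Across the 8 libraries the 4 enzymes did not share 1 pattern. On the log2(FPKM + 1) scale Pearson's r was 0.71 between Aldh1a1 and Aldh2, 0.66 between Maoa and Aldh1a1 and 0.51 between Maob and Aldh2, and it was 0.21 to 0.31 for the other pairs. Without the first control library, over 7 libraries, the first 2 were 0.53 and 0.57 and the others lay between -0.15 and -0.04. The protein-coding genes most like each enzyme were Zfp524 and Rit2 for Maoa (r of 0.97 and 0.96), Tsen54 and Tmem200c for Maob (0.97 and 0.95), Pgrmc2 and Hspe1 for Aldh1a1 (0.99 and 0.98) and Mitf and Fuom for Aldh2 (0.99 and 0.99). These are descriptions over points that share libraries and groups, picked as the highest of all tested genes, and no test was made.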

How the data were processed

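Per the labels' protocols, an RNeasy column gave the total RNA and a SMARTer kit the mRNA-seq libraries, 2 in each of 4 groups. GRCm38 and mm10 are the builds in the submitters' processing notes. The sources used here name no aligner, counter or strandedness. Per the file headers, the authors deposited FPKM values with gene lengths. Multiplied by length, 100% of the values were whole multiples of 1 step (within 0.01 of a read), so reads were recovered for voom and for counting error. Depth was 16544190.0 to 19125423 reads, and 1 read on 1 kb was worth 0.0515 to 0.0590 FPKM. Exact binomial p-values on reads cover counting error only.

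Of 54532 genes, 13716 averaged 1 FPKM or more and were tested with limma 3.58.1 (R 4.3.3) on log2(FPKM + 1), a scale on which the change of low genes is understated. All 8 libraries entered 1 fit with a mean for each group, a variance trend in eBayes and 4 residual degrees of freedom. Tests were two-sided, with Benjamini-Hochberg adjustment over all tested genes and a threshold of 0.05. The same fit was run on 5 simulated sets for α-Syn against control. It recovered 88.6% of log2 changes of 1 and 99.0% of those of 2. The simulated spread was preset and not taken from these libraries, so these shares do not give the power of the real comparisons. Alternatives were voom, 0.1 as the pseudocount, no filter or one at 5 FPKM, scaling by quantiles or by median of ratios, a replicate block, weights for libraries, no variance trend, only the groups compared, removal of a gene length trend (spline with 5 degrees of freedom) and leaving out each library. Named genes were the 4 enzymes, 4 dopamine genes, members of the pathway lists, leading markers and the 5 genes most like each enzyme, of which part is printed and some are not reported here. The enzymes and lists were chosen with earlier results of these data known. Coding sequences came from GENCODE M21 and the upstream sequence from RefSeq, whose promoter table matched 2 of the 4 enzymes. Python 3.11.15, pandas 2.3.3, Biopython 1.88 and matplotlib 3.10.9 were used.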

Additional observations from a re-analysis of the deposited data

How the results depend on the processing

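No enzyme passed the threshold in any of the 8 comparisons under any of the 19 alternatives, and the smallest adjusted p was 0.0617, for Aldh2 in α-Syn mice without the second control library. Over 32 differences and all alternatives, 570 of 596 values kept their sign. Of the 26 that did not, 24 came from leaving out 1 library, and both others were Maob in AKG mice against control, at 0.018 with quantile normalization and 0.076 with a gene length trend removed. The cause was not tested.

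Leaving out each library in turn gave ranges that cross 0 for these differences. Against control they were -0.18 to 0.11 for Maob and -0.38 to 0.038 for Aldh2 in AKG mice, and -0.35 to 0.067 for Aldh2 in combined mice. In combined against α-Syn mice they were -0.18 to 0.066 for Maob, -0.11 to 0.39 for Aldh1a1 and -0.019 to 0.31 for Aldh2, and against AKG mice -0.012 to 0.060 for Maoa, -0.21 to 0.14 for Aldh1a1 and -0.13 to 0.19 for Aldh2. The interaction of Maob ranged from -0.17 to 0.12, and the AKG average from -0.12 to 0.027 for Maob, -0.22 to 0.027 for Aldh1a1 and -0.12 to 0.091 for Aldh2. In these fits a group with a single library takes its spread from the other groups. Maoa and Aldh1a1 stayed below 0 against control in every alternative. Counts over all genes depended on which control library was left out. Without the second, control rested on the first library alone, which stood apart in Ttr and hemoglobin. With no filter on low values 5, 12 and 4 genes passed in α-Syn, AKG and combined mice against control.

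The titles give the groups the same replicate numbers, and the labels do not say that a number marks a shared animal or batch. Deviations of same-numbered libraries from their group means correlated between -0.32 and 0.34 over 13716 genes. With the number as a replicate block 0 enzymes and 0 genes passed in any comparison, the call of Th among those lost. With 2 libraries a group, the intervals set the size of difference that could be seen: for Aldh1a1 in AKG mice they span 0.576 to 1.09 times control. A trend in GC content was not removed, only that in gene length, and fits of only the groups compared give no interaction or average.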

Other observations

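Aldh1a7, the close copy of Aldh1a1, had 6 and 8 reads in α-Syn mice, 10 and 5 in AKG mice and 5 and 19 in combined mice, against 28 and 26 in control mice. It was below the filter and was not tested.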
